A study of Mus musculus with 16 samples.

Results

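Pdk4, Pdk2, Ucp2, Ucp3, Angptl4, Acot1, Acot2, Plin2 and Plin5 are 9 genes that fatty acids can induce in muscle through the peroxisome proliferator-activated receptors (PPARs). They were chosen by symbol, and all 9 were found among the 55471 gene identifiers of the count table. Bulk mRNA sequencing was performed on skeletal muscle of 16 male mice, with 1 library per mouse. Of these, 10 were labelled heterozygous (Npr1+/-) and 6 were labelled wildtype (Npr1+/+), the littermate controls of the same line. Npr1 encodes GCA, the guanylyl cyclase receptor of atrial natriuretic peptide. The Npr1 line (B6.129-Npr1tm1Gar/J) had been crossed back to C57BL/6J for 10 generations or more, and the deletion is present in the whole body, not in muscle alone. The mice were 12 weeks old according to the design text, and all of them received a high-fat diet (HFD, with 60% of kcal from fat) for 12 weeks, so no group on a standard diet enters these comparisons. The labels do not name the muscle that was taken, and they spread the mice over 4 cages.

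PPARs are nuclear receptors that bind fatty acids and their derivatives, pair with retinoid X receptors on DNA and raise the transcription of genes for lipid handling. In muscle, PPAR alpha and PPAR delta are known for shifting fuel use from glucose to fat when fatty acid supply rises, as in fasting, exercise or fat feeding. The 9 genes act at separate steps of that shift. Pdk4 and Pdk2 are kinases that inhibit pyruvate dehydrogenase and so limit glucose oxidation. Ucp3 and Ucp2 are inner-membrane carriers of mitochondria, of the uncoupling protein family. Acot2 and Acot1 cut acyl-CoA into free fatty acid and CoA, in mitochondria and in the cytosol, respectively. Plin5 and Plin2 coat lipid droplets, and Angptl4 is a secreted inhibitor of lipoprotein lipase.

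A PPAR and its retinoid X receptor partner bind a direct repeat of AGGTCA spaced by 1 base, called DR1. RefSeq promoter windows of GRCm38.p6, from 250 bases before to 50 after a start site, were found for 8 of the 9 genes, in 10 windows. Both strands were searched for AGGTCA, any base and AGGTCA again, with at most 2 mismatches in the 12 letters compared. Such a match was present in 2 of the 10 windows, those of Ucp3 and Plin2, and in 3.86% of all 32851 windows. An exact AGGTCA, which is contained in a perfect DR1, was present in 4 of the 10 windows and in 16.26% of all windows. The 250 bases before the start are shown for Ucp3 and Plin2, the genes with a match and with opposite courses over the mice (described further on). Capitals mark the match, and both sequences run 5' to 3' on the strand of the gene.
Ucp3: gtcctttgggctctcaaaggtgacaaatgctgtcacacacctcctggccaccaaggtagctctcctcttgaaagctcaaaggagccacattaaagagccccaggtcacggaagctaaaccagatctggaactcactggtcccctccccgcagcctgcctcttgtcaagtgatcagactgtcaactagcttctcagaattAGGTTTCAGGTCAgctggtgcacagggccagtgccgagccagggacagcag
Plin2: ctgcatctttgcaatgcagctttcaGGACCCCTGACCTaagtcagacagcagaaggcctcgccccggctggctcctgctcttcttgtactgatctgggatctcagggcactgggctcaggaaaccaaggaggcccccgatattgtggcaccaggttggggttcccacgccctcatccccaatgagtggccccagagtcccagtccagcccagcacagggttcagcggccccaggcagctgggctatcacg
The Ucp3 sequence lies on the plus strand at chr7:100472741-100472990, and its match spans bases -51 to -39 from the start. The Plin2 sequence lies on the minus strand at chr4:86670060-86670309, and its match spans bases -225 to -213, with AGGTCA read on the opposite strand. These are matches of letters only, and occupancy by a PPAR was not measured.

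Library totals ranged from 15273472 to 59682677 counts, and the lowest count of a member was 13, for Acot1. Npr1 mRNA was 13.6 ± 3.87 CPM (CPM are counts scaled by library size and TMM factor; SD, n = 10) under the Npr1+/- label and 12.2 ± 1.05 CPM (SD, n = 6) under the Npr1+/+ label, so every direction given here is between libraries as labelled. All 8 skeletal muscle markers were detected, with a summed level of 83446 to 156580 CPM. The mice also differed along one broad axis, the first principal component of all 14331 tested genes, which held 43.7% of the variance and on which the mice labelled Npr1+/- replicates 7, 6 and 5 lay at one end and replicates 9 and 10 at the other. The r of each gene with this axis correlated with gene length (Spearman rho = 0.529 across 14331 genes, which are not independent replicates). An absolute r of at least 0.7 with the axis was found for 39.3% of genes.

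The 9 genes covered a wide range of mRNA levels in muscle of HFD-fed mice. Levels were compared between genes as CPM per kb of the gene length deposited with the counts. Pdk4 was highest, with a median of 501 CPM per kb over the 16 mice. It was followed by Pdk2 with 188, Ucp3 with 91.8, Plin5 with 34.1, Plin2 with 13.2, Angptl4 with 6.58, Acot2 with 5.72, Ucp2 with 2.16 and Acot1 with 0.320 CPM per kb. Within each pair of related genes, one gene thus stood above the other. The order was tested between neighbours by a two-sided exact permutation test of paired differences (sign flips over the 16 mice). After adjustment over the 8 neighbouring pairs, all 8 passed. Both the pairs and their direction were taken from the medians of these same 16 mice. Passing is therefore a description and not independent support for the order, the small step from Angptl4 to Acot2 included. In 6 of the 8 pairs the higher gene was higher in 16 of 16 mice (p = 3.05e-05 each, the smallest this test can give). One of these 6, Acot2 over Ucp2, depended on the deposited lengths (2196 and 6989 bases), since by CPM without length Ucp2 was the higher in 12 of 16 mice. Plin2 exceeded Angptl4 in 14 of 16 mice (exact permutation p = 0.000122). Angptl4 exceeded Acot2 in 10 of 16 mice by 0.38 on the log2 scale of CPM per kb (SD 0.64, adjusted exact permutation p = 0.0294). By CPM without length it was the higher in 16 of 16 mice, so the size of this step also depended on the deposited lengths. This smallest step did not pass when Npr1+/+ replicate 1, 3 or 4 or Npr1+/- replicate 9 or 10 was left out, when 7 of 8 pairs passed, nor within either label alone (7 of 8 each).

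**Figure D1:**
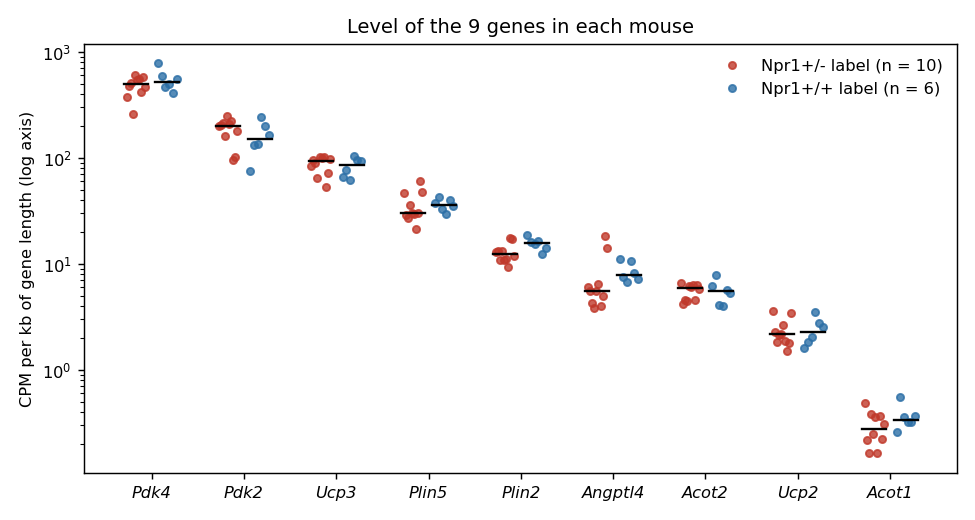
Level of each gene in CPM per kb of gene length on a log axis, 1 point per mouse, with the 10 mice labelled Npr1+/- in red and the 6 labelled Npr1+/+ in blue and a black line at each median. The genes fall from Pdk4 (median 501 over all mice) to Acot1 (0.320), and for every gene the points of the labels overlap.

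The kinases of pyruvate dehydrogenase, Pdk4 (ENSMUSG00000019577, chr6:5483351-5496261, minus strand) and Pdk2 (ENSMUSG00000038967, chr11:95026258-95041354, minus strand), were both abundant. Pdk4 had 914 (lowest), 1735.5 (median) and 2121 (highest) CPM under the Npr1+/- label, against 1429, 1845 and 2731 CPM under the Npr1+/+ label. Its lowest mouse was Npr1+/- replicate 4 and its highest Npr1+/+ replicate 1, and the ranges overlapped. Pdk2 had 305, 634 and 785 CPM under the Npr1+/- label and 238, 474.5 and 773 CPM under the Npr1+/+ label. The lowest 3 mice, Npr1+/+ replicate 1 (238 CPM) and Npr1+/- replicates 8 (305) and 9 (322), lay apart from the other 13, which had 415 CPM or more. The SD of Pdk2 on the log2 scale, 0.51, was larger than that of 89.3% of the 169 genes of similar level, whereas that of Pdk4, 0.35, was larger than that of 62.2% of 37 such genes.

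Of the uncoupling proteins, Ucp3 (ENSMUSG00000032942, chr7:100472990-100485426, plus strand), the form known for muscle, had 167, 291 and 318 CPM (lowest, median, highest) under the Npr1+/- label and 192, 266 and 325 CPM under the Npr1+/+ label. Ucp2 (ENSMUSG00000033685, chr7:100493337-100502020, plus strand), its neighbour on the chromosome and known from immune and many other cells, had 10.5, 15.1 and 24.9 CPM against 11.3, 16.02 and 24.4 CPM. The ranges of the labels overlapped for both genes. Ucp1, the brown fat form, had a mean of 0.0061 CPM and was not tested, and is named here after its value was seen. Pdk2, Ucp2 and Ucp3 each overlap an annotated gene on the other strand (Gm11513, Dnajb13 and Gm10603), and since the strand setting of the counting is not given, reads of a pair may not be told apart.

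Of the thioesterases, Acot2 (ENSMUSG00000021226, chr12:83987861-83993873, plus strand) had 9.26, 12.9 and 14.3 CPM under the Npr1+/- label and 8.76, 12.1 and 17.1 CPM under the Npr1+/+ label. Acot1 (ENSMUSG00000072949, chr12:84009490-84017664, plus strand) had 0.636, 1.08 and 1.90 CPM against 1.01, 1.33 and 2.16 CPM. Again the labels overlapped. Acot1 and Acot2 are close paralogs in a cluster with Acot3 to Acot6, so the split of shared reads between them is uncertain. Acot1 rests on 13 to 59 counts per library, and its values are the least precise of the 9.

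Of the lipid droplet coats, Plin5 (ENSMUSG00000011305, chr17:56111601-56117596, minus strand), the coat known from oxidative tissues, had 44.1, 63.5 and 125 CPM under the Npr1+/- label and 61.4, 75.2 and 88.7 CPM under the Npr1+/+ label. Plin2 (ENSMUSG00000028494, chr4:86648386-86670060, minus strand), a coat found in most cells, had 33.0, 43.8 and 61.8 CPM against 43.4, 54.7 and 66.3 CPM. For Plin5 the Npr1+/- range contained the whole Npr1+/+ range, and for Plin2 the ranges overlapped in part. Angptl4 (ENSMUSG00000002289, chr17:33773750-33781830, minus strand) was the most variable member, with 13.6, 19.7 and 64.6 CPM under the Npr1+/- label and 23.9, 27.9 and 39.2 CPM under the Npr1+/+ label. Its 2 highest mice, Npr1+/- replicates 9 (64.6 CPM) and 10 (49.96 CPM), stood above every other mouse, while the other 8 mice of that label (13.6 to 22.7 CPM) lay below all 6 labelled Npr1+/+. The coefficient of variation of Angptl4 over the 16 mice was 50.9%, and its log2 SD of 0.64 was larger than that of 93.7% of the 2145 genes of similar level.

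The comparison of the genotype labels asks whether these genes had another level in fat-fed muscle labelled Npr1+/-. In the same fit Npr1 mRNA had a log2 fold change of 0.09 (SE 0.20), so a partial loss of Npr1 mRNA was not seen in these libraries. No member passed the test: 0 of 9 were called by edgeR's quasi-likelihood test with cage and body weight as covariates, beside 0 of 14331 genes (0%), and 0 of 9 had an unadjusted p-value under 0.05, beside 151 genes (1.05%). The log2 fold change of Npr1+/- over Npr1+/+ was negative for 7 members and positive for Acot2 and Plin5, with a median of -0.15 over the 9 against -0.0060 over all genes tested. The kinases had log2 fold changes of -0.09 (SE 0.20, Pdk4) and -0.15 (SE 0.24, Pdk2), and the uncoupling proteins -0.16 (SE 0.17, Ucp3) and -0.24 (SE 0.23, Ucp2), the last being the farthest from 0. Acot1 had -0.16 (SE 0.30) and Acot2 0.03 (SE 0.21), and the droplet coats Plin2 and Plin5 had -0.15 (SE 0.16) and 0.12 (SE 0.22). Angptl4 had -0.13 (SE 0.36). Each adjusted p was 1.0 in edgeR with Benjamini-Hochberg adjustment. The 95% intervals bound what these libraries could have missed: that of Plin2 ran from -0.49 to 0.20, that of Pdk4 from -0.51 to 0.34, and the widest, that of Angptl4, from -0.90 to 0.64 on the log2 scale. Without body weight as a covariate the sign of Pdk2, Ucp3 and Plin5 turned (0.19, 0.06 and -0.10 with cage alone). Without Npr1+/+ replicate 4 that of Ucp2 (0.11), Angptl4 (0.21), Acot1 (0.04), Acot2 (-0.18) and Plin2 (0.05) turned, without Npr1+/- replicate 4 that of Pdk4 (0.06) and Angptl4 (0.06), and without Npr1+/- replicate 9 that of Acot2 and Plin5 (-0.02 each). The value of Angptl4 moved the other way to -0.50 without Npr1+/- replicate 9 and to -0.28 without replicate 10.

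**Figure D2:**
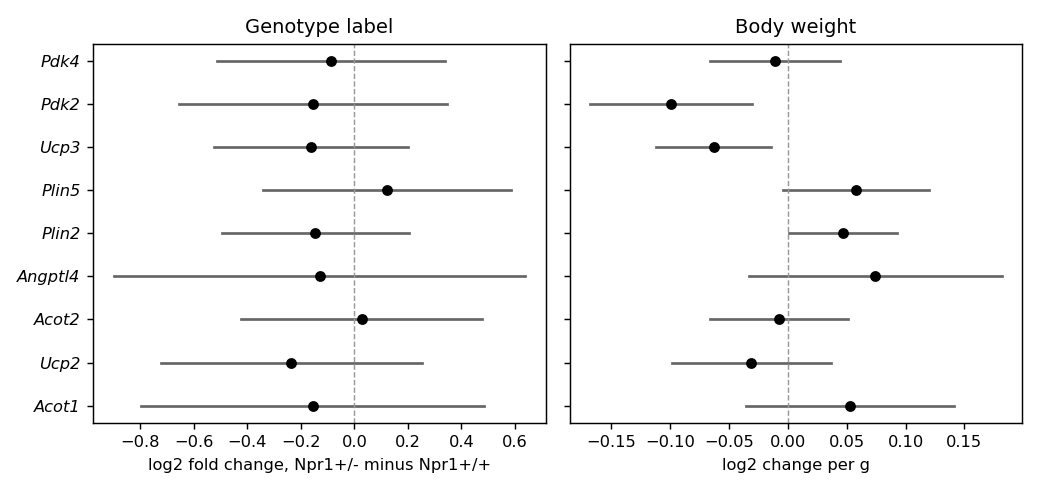
Estimates for each gene from one edgeR fit, as points with 95% intervals as bars: left, the log2 fold change of Npr1+/- over Npr1+/+, and right, the log2 change per g of body weight. All 9 intervals on the left include 0, while on the right those of Pdk2, Ucp3 (both negative) and Plin2 (positive) do not include 0 before adjustment.

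Body weight, which ranged from 36.5 to 54.0 g, was tested in the same fit. No member passed (0 of 9, beside 0 of 14331 genes, 0%). At an unadjusted p-value under 0.05 there were 3 members, beside 2449 genes (17.1%), so such slopes were common among all genes. Pdk2 had a slope of -0.099 on the log2 scale per g (SE 0.032, p = 0.0074, adjusted p = 0.245 in edgeR). Its level was 699, 785 and 681 CPM in the mice of 36.5, 39.4 and 40.1 g, the 3 lightest, and 415 and 428 CPM in those of 49.8 and 54.0 g, the 2 heaviest. Ucp3 had a slope of -0.063 (SE 0.023, p = 0.015, adjusted p = 0.245 in edgeR), with 318, 317 and 283 CPM in the same 3 light mice and 240 and 192 CPM in the 2 heavy ones. Plin2 sloped the other way, by 0.047 per g (SE 0.022, p = 0.045, adjusted p = 0.285 in edgeR), with 33.0, 37.9 and 37.8 CPM in the light mice and 55.9 and 53.5 CPM in the heavy ones. The 3 light mice all carried the Npr1+/- label and the 2 heavy ones the Npr1+/+ label. The next lightest mouse, Npr1+/+ replicate 4 with 40.5 g, had 773 CPM of Pdk2 and 325 CPM of Ucp3, near the light mice, but 57.8 CPM of Plin2, above both heavy mice. Plin5 had a slope of 0.058 (SE 0.029, p = 0.065 in edgeR), and the other 5 members had slopes between -0.031 (Ucp2) and 0.074 (Angptl4) per g. Without Npr1+/- replicate 3, Pdk2 and Ucp3 passed (adjusted p = 0.028 and 0.038 in edgeR), as did 3158 of 14284 genes. With the first axis of all genes as a further covariate, chosen after seeing the data, Ucp3 had p = 0.047, Pdk2 p = 0.050 and Plin2 p = 0.283, all unadjusted.

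**Figure D3:**
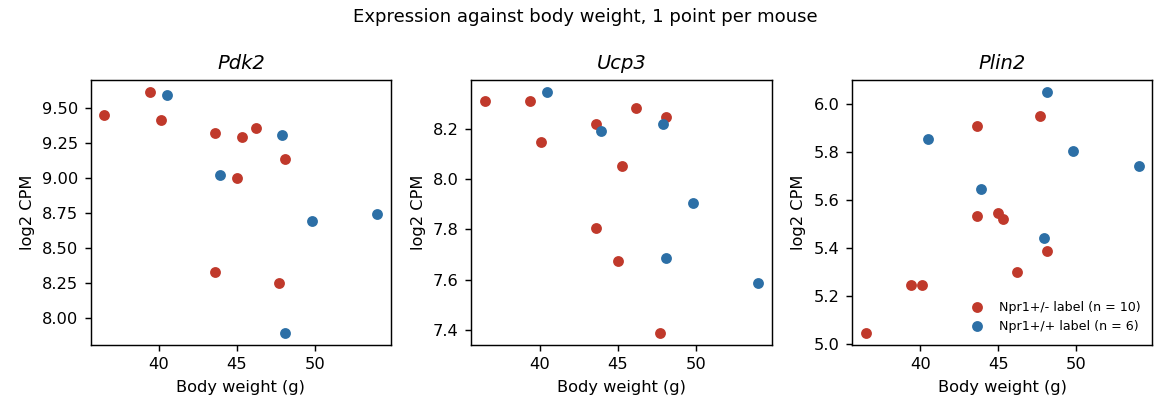
Log2 CPM of Pdk2, Ucp3 and Plin2 (y axes) against body weight in g (x axes), 1 point per mouse, Npr1+/- label in red and Npr1+/+ label in blue. Pdk2 and Ucp3 are high in the light mice and spread to low values above 43 g, whereas Plin2 is lowest in the lightest mouse (33.0 CPM) but reaches 57.8 CPM in the mouse of 40.5 g.

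Cage was tested as a factor of 4 levels in the same fit, to see whether mice housed together shared a level of these genes. Of the 9 members 0 were called, beside 4 genes of all (0.0279%), and 0 had an unadjusted p-value under 0.05, beside 1055 genes (7.36%).

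The genes around the members were read from 14 further lists, and no gene of any of them had an adjusted p-value under 0.05 for the genotype label. Of the receptors and their partners, 15 were tested, 9 higher and 6 lower, and 0 had an unadjusted p-value under 0.05. Pparg, the adipose form, had a log2 fold change of -0.19, the coactivator Ppargc1b had 0.40 and the corepressor Ncor1 had 0.27. For body weight, 9 of these 15 had a negative slope with an unadjusted p-value under 0.05, beside 1769 of 14331 genes with such a slope, and they included Ppargc1b and Ncor1. The 32 other PPAR target genes tested had a median log2 fold change of -0.02. The fatty acid oxidation gene Acaa2 had -0.14 and Cpt1c 0.49.

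The immediate partners of the members were as little separated by label. The pyruvate dehydrogenase complex and its regulators (12 tested, 3 higher and 9 lower, median -0.06) included Pdk1 with -0.10, Dld with -0.10 and Pdpr with 0.22. Of 8 further thioesterases 4 were higher and 4 lower, with Acot9 at -0.11, Acot7 at -0.09 and Acot11 at 0.17. Of 5 other carriers 3 were higher and 2 lower, with Slc25a14 at 0.17, Slc25a27 at 0.11 and Slc25a5 at -0.08. Of 16 genes of lipid droplets and lipolysis 4 were higher and 12 lower, and G0s2, an inhibitor of lipolysis, had -0.41 (p = 0.139, adjusted p = 1.0 in edgeR), Cidea 0.37 and Plin3 0.18. The lipase Lpl, the target of Angptl4, had -0.14 and its anchor Gpihbp1 had 0.15, among 5 genes of lipase control of which 2 were higher, Sel1l with 0.21 included. None of these 5 lists held a gene with an unadjusted p-value under 0.05. Of 21 glucocorticoid and FoxO responsive genes 13 were higher and 8 lower, with Irs2 at 0.85 (p = 0.033), Mt2 at -0.62 (p = 0.033) and Per1 at 0.66 (p = 0.081), each with an adjusted p of 1.0 in edgeR. Of the 6 lists of tissue and cell type markers, 5 held no gene with an unadjusted p-value under 0.05, and the erythrocyte list held 2, Hbb-bt (0.79) and Alas2 (0.54), both higher and chosen here after their values were seen.

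Whether the 9 genes rose and fell together from mouse to mouse was tested over their 36 pairs, by Pearson's r of log2 CPM over the 16 mice with 100000 permutations and adjustment over the 36. They did not move as one block, as 4 of 36 pairs passed, 2 with positive and 2 with negative r. Pdk2 and Ucp3 rose together (r = 0.83, permutation p = 0.00012, adjusted p = 0.0040; rho = 0.86, adjusted permutation p = 0.0014). Both ran against Plin2, with r = -0.78 for Pdk2 (adjusted permutation p = 0.0040, rho = -0.76, adjusted 0.019) and r = -0.67 for Ucp3 (adjusted permutation p = 0.042, rho = -0.61, adjusted 0.116). Angptl4 and Plin5 rose together by r (0.71, adjusted permutation p = 0.028) but did not pass by rho (0.63, adjusted 0.116). Pdk4 was in no pair that passed, and its r with the other 8 genes lay between -0.33 (Acot1) and 0.41 (Acot2). Among the related genes, r was -0.24 for Pdk4 and Pdk2, 0.19 for Acot1 and Acot2 and 0.45 for Plin2 and Plin5, and none of these passed. Ucp2 and Ucp3 did not pass either (r = 0.62, adjusted permutation p = 0.067). On residuals of cage, body weight and label their r was 0.78 (adjusted permutation p = 0.0050). Permutation p-values of residuals ignore the coefficients already fitted and are therefore too small. Passing on residuals is given here as a description only.

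**Figure D4:**
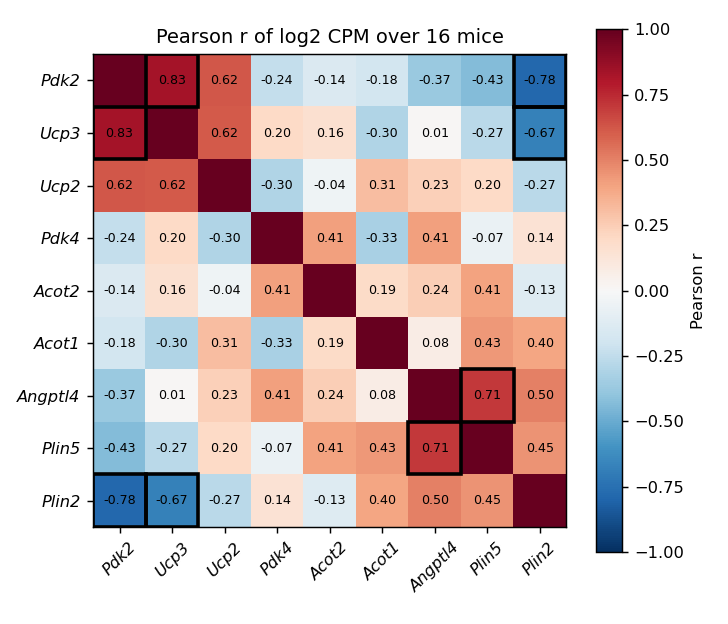
Pearson's r of log2 CPM over the 16 mice for each pair of the 9 genes, from blue (-1) through white (0) to red (1), with the value in each cell and a black frame around the pairs that passed. The framed cells are Pdk2 with Ucp3 (0.83), Pdk2 with Plin2 (-0.78), Ucp3 with Plin2 (-0.67) and Angptl4 with Plin5 (0.71).

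The pairs held to different degrees. Without the 2 mice farthest from the median of the first gene, r was 0.79 for Pdk2 and Ucp3, -0.65 for Pdk2 and Plin2, -0.62 for Ucp3 and Plin2 and 0.43 for Angptl4 and Plin5. Centred within cage, r was 0.86, -0.79, -0.70 and 0.72 for the same 4 pairs. Within the labels Npr1+/- and Npr1+/+, r was 0.86 and 0.82 for Pdk2 and Ucp3 and -0.91 and -0.62 for Pdk2 and Plin2, but 0.81 and -0.28 for Angptl4 and Plin5, a relation that thus rests on Npr1+/- replicates 9 and 10 and was lost without either of them or without Npr1+/- replicate 7 (r down to 0.56, without replicate 9). Pdk2 with Ucp3 and Pdk2 with Plin2 passed without any 1 mouse (r from 0.80 to 0.87 and from -0.93 to -0.72), while Ucp3 with Plin2 passed in 6 of 16 such repeats. As a description beside all tested genes, 4.30% had an r with Pdk2 of the same sign and at least as large as that of Ucp3, 0.161% had one with Ucp3 as large as that of Pdk2, and 1.14% had one with Pdk2 as negative as that of Plin2. From the side of Plin2, 6.05% of genes had an r as negative as that of Pdk2 and 13.4% one as negative as that of Ucp3, and 2.39% had one with Ucp3 as negative as that of Plin2. For Angptl4 and Plin5 the shares were 1.05% with Angptl4 and 9.14% with Plin5. On residuals of cage, body weight and label 7 pairs passed, these 4 and Pdk2 with Ucp2 (r = 0.78), Ucp2 with Ucp3 (0.78) and Pdk4 with Angptl4 (0.67). This count and the next rest on p-values of residuals, which are too small, and are a description. With the first axis of all genes removed, chosen after seeing the data, 6 pairs passed, namely Pdk2 with Ucp3 (r = 0.77), Pdk2 with Plin2 (-0.64), Pdk2 with Ucp2 (0.82), Ucp2 with Ucp3 (0.76), Acot2 with Plin5 (0.76) and Pdk4 with Angptl4 (0.68). Ucp3 with Plin2 (r = -0.52, adjusted permutation p = 0.217) and Angptl4 with Plin5 (r = 0.46, adjusted permutation p = 0.272) were then lost.

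The members were also set beside the summed levels of 4 gene lists, with the members left out of the sums, and 10 of 36 such pairs passed. With the first axis of all genes Plin5 had an r of -0.77, Plin2 -0.72, Angptl4 -0.62 and Pdk2 0.58, beside 30.2% of genes at least as strong, in either direction, as Plin5. In bulk muscle, fewer cells of a type and less RNA per cell cannot be told apart. Angptl4 is expressed by adipocytes as well as by muscle fibers, and the adipocyte list was present in all 16 mice, with none of its 10 genes at 0 in either label. Of that list's sum, 89.1% came from Car3, a gene that muscle fibers also express, so the sum was repeated without Car3, a choice made after seeing the data. Without Car3 it ranged from 344 to 1252 CPM under the Npr1+/- label (median 551) and from 507 to 1008.5 CPM under the Npr1+/+ label (median 608). Its highest mouse was Npr1+/- replicate 10 and its lowest Npr1+/- replicate 7. Of this reduced sum, 72.2% came from Fabp4, a fatty acid binding protein that capillary endothelium also expresses. Angptl4 rose with the reduced sum (r = 0.80, adjusted permutation p = 0.0040; rho = 0.65, adjusted permutation p = 0.055), with r = 0.84 and 0.63 within the labels Npr1+/- and Npr1+/+ and 0.83 centred within cage. Without the 2 mice farthest from the median of Angptl4 r was 0.69, and without any 1 mouse it ran from 0.76 to 0.86 and passed each time. An r this large with the reduced sum was reached by 0.370% of all tested genes. With Fabp4 alone r was 0.80. With neither Car3 nor Fabp4 in the sum, also chosen after seeing the data, r was 0.54 and did not pass (permutation p = 0.030, adjusted 0.090), and of the 9 members Ucp2 passed (r = 0.63, adjusted permutation p = 0.040). On residuals of cage, body weight and label the r of Angptl4 with the sum without Car3 was 0.81 (adjusted permutation p = 0.011), and with the first axis of all genes removed 0.67 (adjusted permutation p = 0.088). Both p-values are of residuals and so too small. With Car3 in the sum, the pairs with Pdk2 (r = -0.69), Ucp3 (-0.62) and Plin2 (0.77) passed, at r reached by 3.74%, 7.78% and 0.237% of all genes, whereas without Car3 r was -0.20 for Pdk2 and 0.46 for Plin2 and none of the 3 passed.

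**Figure D5:**
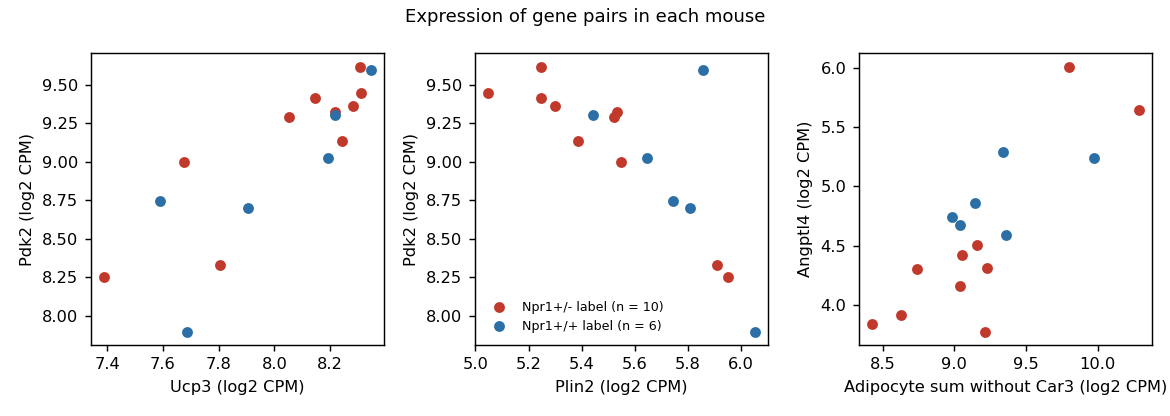
Log2 CPM in each mouse, 1 point per mouse, Npr1+/- label in red and Npr1+/+ label in blue: Pdk2 against Ucp3, Pdk2 against Plin2, and Angptl4 against the summed adipocyte markers without Car3. Pdk2 rises with Ucp3 (r = 0.83) and falls with Plin2 (r = -0.78), and the 2 mice with the most Angptl4 are among the 3 highest for the adipocyte sum (r = 0.80), of which 72.2% is Fabp4.

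Plin5 rose with the summed macrophage and leukocyte markers (r = 0.80, adjusted permutation p = 0.0059; rho = 0.75, adjusted 0.0093), although within the 6 mice labelled Npr1+/+ r was -0.01. That sum ranged from 43.4 to 158 CPM under the Npr1+/- label and from 70.1 to 128 CPM under the Npr1+/+ label, 58.2% of it came from Lyz2, and none of its 10 genes was at 0. Angptl4 rose with it too (r = 0.63, adjusted permutation p = 0.036), but without Npr1+/- replicates 9 and 10 r was 0.40. Plin2 fell with the slow and oxidative fiber sum (r = -0.64, adjusted permutation p = 0.031; -0.16 within the Npr1+/+ label), which ranged from 245 to 1416.5 CPM and to which Myh2 gave 57.2%. The sum of 21 glucocorticoid and FoxO responsive genes rose with Pdk2 (r = 0.70, adjusted permutation p = 0.019) and Ucp3 (r = 0.63, adjusted 0.036) and fell with Plin2 (r = -0.78, adjusted 0.0059) and Plin5 (r = -0.70, adjusted 0.019). Pdk4, a known target of both glucocorticoids and FoxO factors, was in none of the pairs that passed. As a description, the r of Plin5 with the leukocyte sum was reached by 3.94% of all tested genes, and for the other pairs with these 3 sums the share ran from 9.25% (Plin2 with the glucocorticoid and FoxO sum) to 21.2% (Ucp3 with that sum). Without any 1 mouse, Plin5 with the leukocyte sum, Plin2 with the glucocorticoid and FoxO sum and Plin2 with the adipocyte sum that holds Car3 passed each time. Of the others, Ucp3 with the adipocyte sum that holds Car3 passed in 5 of 16 such repeats, and Pdk2 with that sum was lost without Npr1+/- replicate 9 (adjusted permutation p = 0.051). Pdk2 with the glucocorticoid and FoxO sum was also lost without Npr1+/- replicate 9 (r = 0.65), Plin5 with that sum without Npr1+/- replicate 7 or 9 (r = -0.57 without the latter), and Plin2 with the fiber sum without Npr1+/+ replicate 1 or Npr1+/- replicate 5, 7 or 8 (r = -0.53 without replicate 7). Angptl4 with the leukocyte sum passed in 10 and Ucp3 with the glucocorticoid and FoxO sum in 9 of 16 such repeats. On residuals of cage, body weight and label, 1 of the 36 pairs passed, that of Plin5 and the leukocyte sum (r = 0.78, adjusted permutation p = 0.027). Angptl4 with the leukocyte sum (r = 0.68), Plin5 with the glucocorticoid and FoxO sum (-0.67) and Plin2 with the adipocyte sum that holds Car3 (0.65) kept a similar or somewhat smaller r. Each of them had an adjusted permutation p of 0.053. These p-values of residuals are too small, so this count is a description. The part of these cell types and of the broad axis in the members' values was not tested.

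The genes closest to each member in rank over the 16 mice were sought among 7501 genes with a mean of at least 10 CPM, as a description. Pdk2 was closest to Letm1 (Spearman rho = 0.98) and Trim54 (0.97), and Ucp3 to Snd1 (0.92) and Cdh15 (0.92). Plin2 was closest to Akr1b3 and Stac3 (0.94 each), and Plin5 to Slc25a34 and BC048679 (0.90 each). Ucp2 was closest to Ubl7 (0.91) and Arpc1b (0.90), and Angptl4 to Ppcdc (0.81) and Igsf8 (0.79). Pdk4 was close to Ank2 (0.78), Acot1 was closest to Olfml3 (0.74) and Trim47 (0.71), and Acot2 to Lrp1 (0.72) and Fn1 (0.69). No member was among the 2 closest genes of another member.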

How the data were processed

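Bulk mRNA-seq libraries of skeletal muscle from 16 HFD-fed male mice were analysed, 10 labelled Npr1+/- and 6 labelled Npr1+/+, with group, cage and body weight taken from the labels. The authors mapped reads to GRCm38 with STAR 2.7.2b, counted fragments with both ends aligned per gene with featureCounts, and deposited raw counts per gene without normalization. The submitters' processing notes name featureCounts 1.6.4. Beside the counts the authors deposited a gene length, another kind of value used here only for CPM per kb. The labels and the methods name different library kits, and the strand setting of the counting was not given in the sources used here. Of 55471 gene identifiers 55144 were paired with a symbol, 0 pairs of libraries held identical counts, and 0 sample columns were left unmapped. Labels do not say that libraries share an animal, so each was treated as 1 mouse.

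From the counts, low genes were dropped by filterByExpr and the rest, after TMM scaling, were tested in edgeR 4.0.16 under R 4.3.3 (glmQLFit with robust = TRUE and legacy = TRUE, then glmQLFTest) on genotype label, cage and body weight. Benjamini-Hochberg adjustment ran over 14331 genes at a threshold of 0.05. CPM are TMM-scaled, log2 CPM have a prior count of 2, and correlations were computed in Python 3.11.15 with numpy 2.4.6. Tests were checked on simulated data. Depth was 15273472 to 59682677 counts per library, and this limits precision most for Acot1.

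The members and gene lists were chosen with earlier results of these data known. The genes named are the 9 members, the 3 genes with the smallest genotype p of the lists that surround them, the 2 closest genes of each member over the mice, and Npr1. Not every gene picked in this way is reported here. Alternatives were other covariates, the block of replicate numbers, other scalings, DESeq2 1.42.0, limma-voom (limma 3.58.1), other filters, the newer edgeR method, the summed counts of Acot1 and Acot2, rank correlation, residuals, and leaving out each mouse. The first axis as a covariate and the adipocyte sum without Car3, and without Fabp4 too, were added after seeing the data. Protein sequences and a promoter window of Angptl4 were not used here.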

Additional observations from a re-analysis of the deposited data

How the results depend on the processing

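The genotype label called 0 members under every covariate set, scaling, filter and tool tried and without any 1 mouse, and cage did likewise. The signs of small fold changes were not stable, and the cause was not tested. The log2 fold change turned for Pdk2 (0.21), Ucp3 (0.057), Acot2 (-0.0071) and Plin5 (-0.019) with the genotype label alone, for Pdk2 (0.19), Ucp3 (0.061) and Plin5 (-0.10) with cage alone, for Acot2 with body weight alone (-0.0011) and with library size only (-0.0027), and for Acot1 with its counts and those of Acot2 summed (0.010). Same-numbered replicates of the labels are different animals. Their deviations correlated with r from 0.033 to 0.170 over 6 pairs (mean 0.078), beside a mean of -0.0082 over the 54 other pairs. Whether they share more than a number was not tested. With a replicate block fitted instead of cage, 0 members were called, beside 2 of 14331 genes, and 3 members had an unadjusted p-value under 0.05 in edgeR. These were Angptl4 (-0.78, p = 0.0014), Plin2 (-0.35, p = 0.032) and Pdk4 (-0.49, p = 0.042), with adjusted p from 0.520 to 0.544. The share of all genes at that unadjusted p was not counted in this fit. Npr1+/- replicates 7 to 10 have no Npr1+/+ mouse of the same number, so these estimates rest on the 6 same-numbered pairs and not on all 16 mice. The sign turned there for Pdk2 (0.27), Ucp2 (0.011), Acot1 (0.053) and Plin5 (-0.024). Without 1 mouse each, log2 fold changes ran from -0.15 to 0.059 (Pdk4), -0.35 to 0.11 (Ucp2), -0.50 to 0.21 (Angptl4), -0.34 to 0.039 (Acot1), -0.18 to 0.17 (Acot2), -0.29 to 0.049 (Plin2) and -0.022 to 0.19 (Plin5).

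Body weight called 0 members under all alternatives except without Npr1+/- replicate 3 (0 to 2 over the mice left out), and 3 at an unadjusted p-value under 0.05. With the genotype label left out of the fit, 333 of 14331 genes were called but 0 members. The adjusted p was then 0.073 for Pdk2 and 0.083 for Plin2 in edgeR. Its slope per g turned for Angptl4 with the first axis as a covariate (-0.00015), for Acot1 with Acot2 summed (-0.0025) and for Acot2 without cage (0.0014), and without 1 mouse it ran from -0.021 to 0.013 (Pdk4), -0.054 to 0.0017 (Ucp2) and -0.033 to 0.015 (Acot2). Pairs of members that passed were 2 by Spearman's rho, 7 on residuals of cage, weight and label, 2 with library size only, and 2 to 5 without 1 mouse (2 without Npr1+/- replicate 10). Pairs with marker sums were 5 by rho, 1 on residuals, and 4 to 11 without 1 mouse (6 without Npr1+/- replicate 5 or 7, 4 without replicate 9). Both counts on residuals rest on permutation p-values that are too small. Depth limits Acot1 most.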
